A study of Mus musculus with 18 samples.

Results

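Epididymal fat of mice that had eaten a high-fat diet with green tea extract was compared with the same fat depot of mice on a normal diet, gene by gene, to see which transcripts differed from the normal-diet level while the extract was given. The genes described are those with at least 1 FPKM (a level scaled to transcript length and to the fragments mapped in the library) in at least 3 of the 9 fat libraries. This held for 13762 of the 23474 genes in the deposited table, and the other 9712 were not tested. All mice were male C57BL/6J, began their diet at 5 weeks of age and were 17 weeks old after 12 weeks of feeding. The normal-diet group (ND) ate a normal diet. The high-fat group (HFD) ate a high-fat diet, and the green tea group (GT) ate the high-fat diet with 0.25% by weight of an ethanol extract of green tea. ND and GT therefore differ in both the fat content of the diet and the extract, and those 2 factors cannot be told apart in this comparison. Each diet had 10 mice and 3 fat libraries of polyadenylated RNA. Whether a library is 1 mouse is not stated in the labels, and p-values therefore refer to the spread among these libraries, some of which may be technical.

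White fat stores triglyceride in adipocytes, which release hormones such as leptin, adiponectin and adipsin. In obese mice the epididymal depot takes up macrophages, many of which express Trem2, Gpnmb and Cd9, digest lipid in their lysosomes and gather around dying adipocytes. Other parts of the same response are chemokines that draw in monocytes, collagens that thicken the matrix, and a decline of transcripts that mature adipocytes use for lipid synthesis and hormone response. In whole tissue a lower level can mean fewer cells of a type or less RNA per cell, and bulk libraries cannot tell these apart.

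The epididymal fat pad touches the epididymis and testis, and 1 normal-diet library held their RNA. The 24 testis markers summed to 109700 FPKM in ND 1, 256.9 in ND 2 and 4013 in ND 3, against 163.7, 77.78 and 85.15 in the GT libraries. HFD 1 carried 2598 FPKM of them, and the epididymal markers stood at 23500 FPKM in ND 1 and 1279 in HFD 2 but below 1 in each GT library. The adipocyte markers were detected in every library, with summed levels of 8440 FPKM in ND 1, 59540 and 40220 in ND 2 and ND 3, and 33100 to 44070 in GT. ND 1 ranked its genes apart from the other libraries, with Spearman correlations of 0.282 to 0.602 against 0.745 to 0.990 among the other 8. FPKM totals were 1002765 in ND 1 and 527904 to 608819 elsewhere; read numbers were not analysed here, so the depth behind a value is unknown. Fits were therefore made to all 9 fat libraries and to the 8 without ND 1, in which 12859 genes passed the filter and 903 of the 13762 no longer did. Where 1 fit alone is given for a gene or list and is not named, it is the fit without ND 1.

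**Figure D1:**
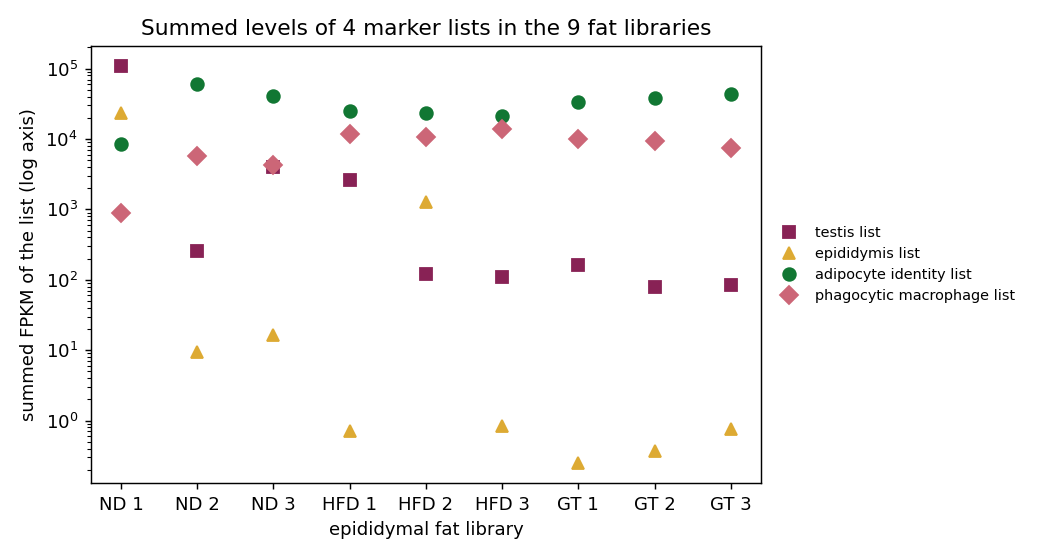
Summed FPKM of marker lists (vertical axis, log scale) in each of the 9 epididymal fat libraries, by diet. Testis and epididymis markers reach 109700 and 23500 FPKM in ND 1, where adipocyte markers are lowest at 8440, and the 3 GT libraries hold 77.78 to 163.7 FPKM of testis markers.

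Changes are log2 differences of GT minus ND on the log2(FPKM + 1) scale with their standard errors, from limma fits to all 3 diets, and a gene was called at a Benjamini-Hochberg adjusted p under 0.05. The added 1 understates changes of weakly expressed genes. Without ND 1, 964 genes were higher in GT (7.5% of 12859) and 406 lower (3.16%). Both shares are the background for each count of called list genes below. The 3 GT libraries all lay above ND 2 and ND 3 for 21.3% of genes and all below for 24.2%. With all 9 libraries, 84 were higher (0.61% of 13762) and 4 lower (0.0291%), and the GT libraries all lay above the ND libraries for 15.7% of genes and below for 13.5%. Of the 88 genes called with 9 libraries, 87 could be fitted without ND 1 and all 87 were called there in the same direction. A gene under 1 FPKM in every ND library passed the filter only through HFD or GT libraries. For such genes, among them Il1rn, Il7r, F7, Tnf and Elovl3, a higher level in GT and a lack of overlap were partly set by the filter.

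These counts rested on few libraries. With the replicate number as a block, 157 genes were called without ND 1 (140 higher, 17 lower) and 3 with it. Those 3 were Saa3, the orphan receptor gene Gpr50 and the transferrin receptor gene Tfr2, all higher (the last 2 named after their values were seen). Leaving out GT 2 left 145 calls without ND 1 and 0 with all other libraries, where 1181 genes had an unadjusted limma p under 0.05. Fits to the ND and GT libraries alone, with no HFD library to add to the estimate of the spread, called 6 genes without ND 1 and 0 with it, where 1527 had an unadjusted limma p under 0.05. Of 162 named genes called without ND 1, 0 passed in that fit, nor did any of 25 called with all 9 libraries. Every call of a named gene below thus rests on the spread among the HFD libraries too. Leaving out ND 2 as well as ND 1 left 1 ND library, ND 3, to stand for the normal diet. The fit without the 3 libraries that held most testis RNA (ND 1, ND 3 and HFD 1) left ND 2 alone. So did leaving out ND 1 and ND 3. In such fits the normal diet was assumed to vary like the other groups, so their calls rest on no spread among ND libraries.

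Genes of macrophages that take up lipid stood highest among the genes that were higher in GT. Of the 20 genes of a phagocytic macrophage list, 15 were higher and 0 lower without ND 1, with a median log2 difference of 2.69 against -0.05 over all genes. In all 9 libraries 10 were higher, and the median was 3.30 against 0.08. The list's FPKM summed to 5742 and 4311 in ND 2 and ND 3, 883.6 in ND 1, and 10030, 9500 and 7341 in GT.

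Gpnmb, a membrane glycoprotein of lipid-laden macrophages, stood at 2.32, 3.75 and 6.01 FPKM in the ND libraries and at 535, 432 and 143 in GT. It was higher by 5.80 ± 0.54 without ND 1 (adjusted p = 0.00469) and by 6.07 with it (adjusted p = 0.00856). Every GT library lay above every ND library, GT 3 was the lowest of its diet, and HFD libraries stood at 874, 699 and 958. Trem2, the lipid-sensing receptor of these cells, was at 7.58, 2.30 and 2.61 FPKM in ND and 238, 169 and 59.2 in GT (5.29 ± 0.55, adjusted p = 0.00644, and 4.85 with ND 1, adjusted p = 0.0227). Its groups did not overlap, and ND 1 was the highest of the 3 ND libraries. Mmp12, macrophage elastase, was at 0.0959, 9.70 and 5.95 FPKM in ND and 441, 367 and 139 in GT (5.04 ± 0.50, adjusted p = 0.00532, and 6.03 with ND 1, adjusted p = 0.0354). Its groups did not overlap, and ND 1 was the lowest library. Atp6v0d2, a proton pump subunit of macrophages and osteoclasts, was at 2.04, 1.42 and 1.16 FPKM in ND and 120, 91.9 and 35.6 in GT, a log2 difference of 5.03 ± 0.45 (adjusted p = 0.00408, and 0.00856 with ND 1). Itgax (CD11c) was higher by 3.45 ± 0.38, the galectin gene Lgals3 by 3.41 ± 0.44, the endosomal glycoprotein gene Cd68 by 3.01 ± 0.40 and the signalling adaptor gene Tyrobp by 2.75 ± 0.37. These 4 also passed with all 9 libraries, at adjusted p from 0.0327 to 0.0366. The acid lipase gene Lipa (2.31 ± 0.32), the cathepsin gene Ctsk (2.78 ± 0.50), the fusion receptor gene Dcstamp (1.93 ± 0.31), the fatty acid binding protein gene Fabp5 (1.83 ± 0.21) and the droplet coat gene Plin2 (1.66 ± 0.27) were higher without ND 1. The remaining calls were the cathepsin gene Ctsl (1.56 ± 0.26) and the stress gene Atf3, described further on. Of these 5 only Dcstamp passed with all 9 libraries (adjusted p = 0.0462). In this list 10 genes were higher without ND 1 and GT 2, and 9 with the replicate block. Gpnmb, Trem2, Mmp12, Atp6v0d2, Itgax, Lgals3, Cd68 and Tyrobp were among the calls in both. Without the 3 libraries that held most testis RNA (ND 1, ND 3 and HFD 1) the list's median was 2.65.

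**Figure D2:**
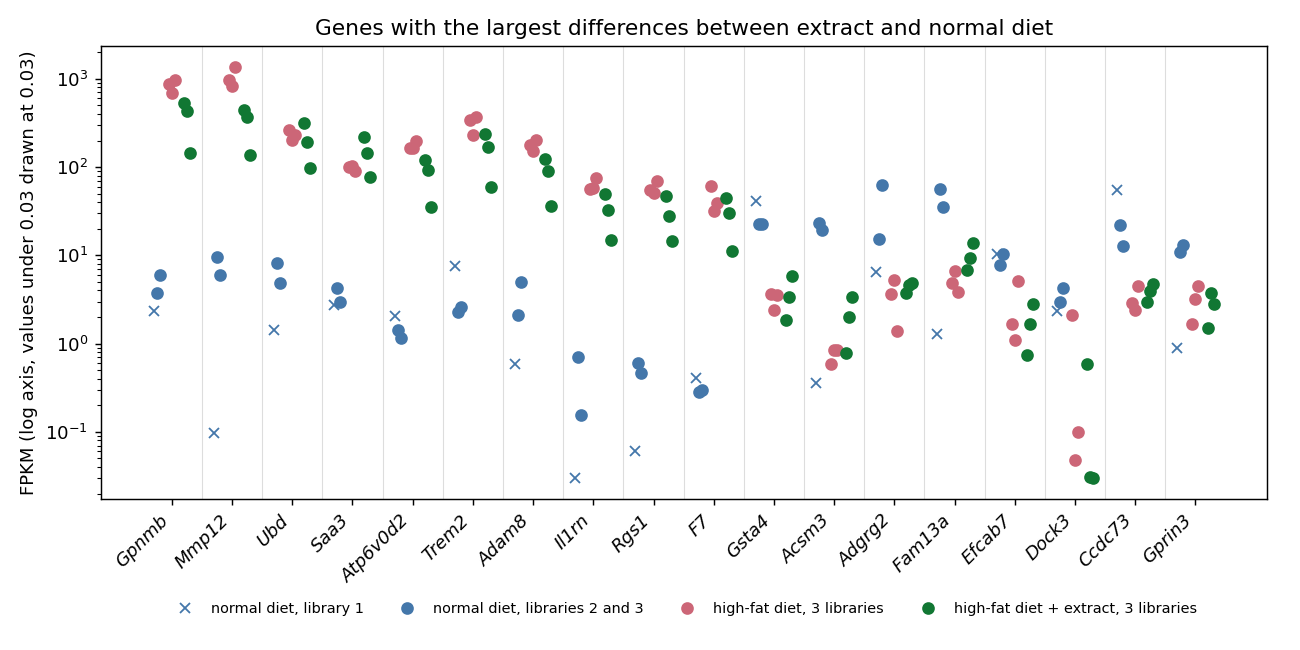
FPKM (log scale) in each of the 9 libraries, by diet, of the 10 genes with the largest higher differences between GT and ND without ND 1 and 8 of those with the largest lower ones. Gpnmb lies at 2.32 to 6.01 FPKM in ND and 143 to 535 in GT, while Gsta4 lies at 22.4 to 41.2 in ND and 1.88 to 5.77 in GT.

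The promoters of these genes were read for the letters of AP-1, the Fos and Jun dimer that acts in activated macrophages. The same search covered an E-box and the motifs kappaB, ISRE, DR1 and CCAAT. Windows are shown for AP-1 and the E-box only. The window ran from 250 bases before to 50 bases after the RefSeq start site, and 9973 of the genes fitted without ND 1 at least 1. Some genes have more than 1 start site and window, and a gene was counted when any of its windows held the letters. The letters TGANTCA, searched on both strands, occurred for 6.44% of these 9973 genes, for 10.2% of the 738 of them that were higher in GT and for 3.88% of the 309 that were lower. In the phagocytic macrophage list 5 of the 15 genes with a window had them (33.3%). Of the other motifs, CCAAT occurred for 60.0% of these 15 and kappaB for 0, against 42.7% and 0.481% of the 9973 genes. Among the 738 higher genes kappaB and DR1 each occurred for 1.08%, against 0.481% and 0.331% of the 9973. The 5 windows with the letters, chosen after their values had been seen, are shown because their genes share a rise in GT. They are given 5′ to 3′ on the gene's strand in build GRCm38.p6 with the AP-1 letters in capitals. Positions count from the start site, with 1 as its first base and -1 as the base before it.
Gpnmb: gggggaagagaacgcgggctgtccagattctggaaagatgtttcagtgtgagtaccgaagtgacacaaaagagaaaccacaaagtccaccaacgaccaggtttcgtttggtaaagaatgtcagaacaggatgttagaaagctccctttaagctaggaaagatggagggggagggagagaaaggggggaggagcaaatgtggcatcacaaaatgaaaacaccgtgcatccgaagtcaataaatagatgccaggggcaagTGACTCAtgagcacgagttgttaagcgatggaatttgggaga
Itgax: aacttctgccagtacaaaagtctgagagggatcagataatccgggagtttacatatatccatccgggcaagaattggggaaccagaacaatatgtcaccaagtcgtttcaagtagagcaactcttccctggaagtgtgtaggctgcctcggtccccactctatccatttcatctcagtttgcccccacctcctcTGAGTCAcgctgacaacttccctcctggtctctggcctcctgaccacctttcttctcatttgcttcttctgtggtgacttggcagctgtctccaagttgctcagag
Mmp12: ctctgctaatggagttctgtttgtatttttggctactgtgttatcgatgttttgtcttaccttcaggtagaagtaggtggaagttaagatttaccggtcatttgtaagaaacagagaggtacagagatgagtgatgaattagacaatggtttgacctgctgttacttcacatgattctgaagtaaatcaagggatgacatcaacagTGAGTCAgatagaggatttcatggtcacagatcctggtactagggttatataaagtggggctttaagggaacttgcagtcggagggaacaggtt
Cd68: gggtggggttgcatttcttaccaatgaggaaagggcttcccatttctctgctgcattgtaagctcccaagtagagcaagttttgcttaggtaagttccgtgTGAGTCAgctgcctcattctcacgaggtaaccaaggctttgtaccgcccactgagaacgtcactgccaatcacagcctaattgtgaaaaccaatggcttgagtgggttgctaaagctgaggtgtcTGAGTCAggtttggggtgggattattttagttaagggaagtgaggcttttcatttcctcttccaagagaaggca
Trem2: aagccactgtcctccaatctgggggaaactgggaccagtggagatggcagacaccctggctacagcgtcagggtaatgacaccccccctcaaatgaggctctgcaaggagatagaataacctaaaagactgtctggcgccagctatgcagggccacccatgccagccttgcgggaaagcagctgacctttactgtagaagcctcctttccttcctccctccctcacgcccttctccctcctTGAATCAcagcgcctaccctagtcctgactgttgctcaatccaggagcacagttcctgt
The Gpnmb window lies at chr6:49036268-49036567 on the plus strand, with the letters from position 9. The Itgax window is chr7:128129300-128129599 (plus strand, position -56) and the Mmp12 window chr9:7347124-7347423 (plus strand, position -44). Mmp12 has a further window, chr9:7344147-7344446, without the letters. The Cd68 window, chr11:69666121-69666420 on the minus strand, holds the letters at -149 and -24. The Trem2 window is chr17:48346151-48346450 (plus strand, position -9). A match says only that the letters are there, not that a factor binds them.

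Lysosomal genes were higher together with the macrophage genes. Of 32 genes for lysosomal hydrolases, membrane proteins and the proton pump that acidifies the lysosome, 20 were higher and 0 lower without ND 1 (median 0.79). When ND 1 was kept 0 were called by limma, although the median was 1.14 and 24 were higher at an unadjusted p under 0.05. Ctsd, cathepsin D, stood at 378, 826 and 753 FPKM in ND and 2396, 2502 and 1984 in GT, a log2 difference of 1.53 ± 0.19 (adjusted p = 0.00644) that was 1.88 with ND 1 (adjusted p = 0.0775). The GT libraries lay close to each other and above all ND libraries. Gusb, beta-glucuronidase, was at 6.19, 26.3 and 24.4 FPKM in ND and 121, 110 and 74.0 in GT (1.93 ± 0.22, adjusted p = 0.00532; 2.56 with ND 1, adjusted p = 0.0764). Gla, the alpha-galactosidase that is lacking in Fabry disease, was at 0.595, 1.97 and 1.97 FPKM in ND and 16.5, 15.2 and 6.19 in GT (2.1 ± 0.36, adjusted p = 0.014; 2.4 with ND 1, adjusted p = 0.0539). Both kept all GT libraries above all ND libraries, with GT 3 the lowest of its diet. The largest difference in the list was that of the cathepsin gene Ctss (3.26 ± 0.42), followed by the lysosomal membrane gene Laptm5 (2.36 ± 0.31). The saposin precursor gene Psap (1.60 ± 0.27), the pump genes Atp6v1b2 (1.36 ± 0.27), Atp6v0a1 (1.30 ± 0.16) and Atp6v1a (1.12 ± 0.25), the hexosaminidase gene Hexa (1.27 ± 0.24) and the membrane gene Lamp1 (0.70 ± 0.17) were also higher. The count fell to 5 both with the replicate block and without GT 2. Ctsd, Gusb and Ctss passed in both of these fits, and Gla in neither. Without the 3 libraries that held most testis RNA the list's median was 0.83.

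Many lysosomal genes carry an E-box read by TFEB, TFE3 and MITF, the family that drives lysosome formation. The letters TCACGTG, on either strand, were in a window of 6.89% of the 9973 genes, of 6.64% of those higher in GT and of 5.83% of those lower in GT. In the lysosomal list 9 of the 23 genes with a window had them (39.1%), namely Ctsa, Atp6v0b, Ctsd, Mcoln1, Lamp1, Atp6v0d1, Glb1, Atp6v1a and Gla. Of these 9 genes Atp6v0b (0.67, adjusted p = 0.0612), Atp6v0d1 (0.33, adjusted p = 0.185) and Mcoln1 (0.06, adjusted p = 0.863) did not pass. The windows of Ctsd and Gla, chosen after their values were seen as the 2 with the largest differences among the 9, are shown with the E-box letters in capitals; where 8 letters read TCACGTGA, the motif matches on both strands, 1 base apart.
Ctsd: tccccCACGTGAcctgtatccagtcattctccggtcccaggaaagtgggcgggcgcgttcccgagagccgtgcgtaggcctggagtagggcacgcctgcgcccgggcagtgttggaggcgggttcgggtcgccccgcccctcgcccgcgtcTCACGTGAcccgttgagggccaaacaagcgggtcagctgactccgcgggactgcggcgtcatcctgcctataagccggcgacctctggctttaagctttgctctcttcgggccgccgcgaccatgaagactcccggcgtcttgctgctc
Gla: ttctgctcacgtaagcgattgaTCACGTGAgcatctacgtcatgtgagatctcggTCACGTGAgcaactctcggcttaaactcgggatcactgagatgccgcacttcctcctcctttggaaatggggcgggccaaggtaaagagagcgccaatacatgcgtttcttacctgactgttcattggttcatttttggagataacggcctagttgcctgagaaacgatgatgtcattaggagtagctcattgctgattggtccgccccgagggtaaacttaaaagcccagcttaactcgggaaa
The Ctsd window is chr7:142387778-142388077 on the minus strand, with matches from -245 and -99, and the Gla window is chrX:134600956-134601255 on the minus strand, with matches from -228 and -195. These share only the E-box letters searched for, and no binding was measured.

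Some genes of resident macrophages and some chemokine genes were higher without ND 1, and most members of both lists did not pass. Of 19 resident macrophage genes 8 were higher and 0 lower without ND 1 (median 0.80), and 0 were called with all 9 libraries (10 higher at an unadjusted limma p under 0.05). Adgre1, the F4/80 antigen, stood at 0.651, 16.0 and 14.3 FPKM in ND and 136, 125 and 57.4 in GT (2.63 ± 0.34, adjusted p = 0.00805; 3.73 with ND 1, adjusted p = 0.102). All GT libraries lay above all ND libraries, and ND 1 lay far below the other ND libraries. Csf1r, the receptor for the main macrophage growth factor, was at 4.78, 36.6 and 37.2 FPKM in ND and 137, 126 and 68.0 in GT (1.49 ± 0.28, adjusted p = 0.0165). Lysozyme (Lyz2), the complement genes C1qb and C1qc, the Fc receptor gene Fcgr1 and the lectin gene Clec10a were higher by 1.26 to 1.94. Adgre1 alone passed without GT 2, and none of the 8 passed with the block, where Adgre1 had an adjusted p of 0.0511. Without the 3 libraries that held most testis RNA the list's median was 0.63.

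Of 23 chemokine, cytokine and receptor genes, 10 were higher and 0 lower without ND 1 (median 1.04), and 1, Il1rn, with all 9 libraries. Il1rn, the interleukin-1 receptor antagonist, was at 0, 0.700 and 0.154 FPKM in ND and 50.1, 33.1 and 15.0 in GT (4.44 ± 0.45, adjusted p = 0.00513; 4.60 with ND 1, adjusted p = 0.01). Ccl2, which recruits monocytes through Ccr2, was at 0.156, 4.04 and 4.08 FPKM in ND and 21.6, 21.7 and 12.6 in GT (1.92 ± 0.25, adjusted p = 0.00738; 2.63 with ND 1, adjusted p = 0.0914). Neither gene's groups overlapped, though Il1rn passed the filter only through HFD or GT libraries. The macrophage chemokine genes Ccl9 (2.42 ± 0.37), Ccl8 (2.34 ± 0.38), Ccl6 (1.41 ± 0.32) and Ccl3 (1.23 ± 0.29), the chemokine receptor gene Ccr1 (1.25 ± 0.31), Tgfb1 (1.57 ± 0.27) and Tnf (1.04 ± 0.22) were higher too. Tnf, the inflammatory cytokine, was weakly expressed, at 0 to 0.207 FPKM in ND and 0.941 to 1.98 in GT. Ccl8 was at 61.0, 32.0 and 21.0 FPKM in GT and 26.1, 29.3 and 21.7 in HFD, so its GT libraries reached above and below the HFD range. Il1rn and Ccl2 passed without GT 2 and Il1rn and Ccl8 with the block. Without the 3 libraries that held most testis RNA the list's median was 0.93.

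Acute-phase genes included some of the most clearly separated members. Saa3, the serum amyloid A made by fat and macrophages, was at 2.73, 4.25 and 2.96 FPKM in ND and 219, 145 and 77.7 in GT. It was higher by 4.90 ± 0.38 without ND 1 (adjusted p = 0.0019) and by 5.00 ± 0.37 with it (adjusted p = 0.00395), and it passed with the block in both fits (adjusted p = 0.0113 and 0.0373). HFD libraries stood at 89.3 to 102, inside the GT range. Haptoglobin (Hp), which binds free haemoglobin, was at 219, 1181 and 1159 FPKM in ND and 6882, 6342 and 4766 in GT (2.34 ± 0.19, adjusted p = 0.0019; 3.14 with ND 1, adjusted p = 0.0808). Its GT libraries lay above all ND libraries, and ND 1 was far below ND 2 and ND 3. The protease inhibitor gene Serpina3n (0.98 ± 0.13) and complement C3 (0.94 ± 0.17) were higher, while the ferroxidase gene Cp, ceruloplasmin, was lower. Cp was at 104 and 88.2 FPKM in ND 2 and ND 3 and 37.3, 39.2 and 46.2 in GT (-1.21 ± 0.21, adjusted p = 0.0129), but ND 1 held 6.25, and with it the log2 difference was 0.03 (adjusted p = 0.984). In all, 4 of the 10 genes were higher and 1 lower without ND 1, and 1 (Saa3) was called with all 9 libraries. Saa3 and Hp were the calls without GT 2.

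Antigen presentation by class II molecules was the other immune list with most of its members called. Of 11 genes 8 were higher and 0 lower without ND 1 (median 1.16), and 1, H2-DMb1, with all 9. H2-DMb1, part of the peptide-loading complex, was at 13.0, 16.8 and 17.1 FPKM in ND and 94.9, 72.1 and 42.0 in GT (1.90 ± 0.29, adjusted p = 0.0111; 2.02 with ND 1, adjusted p = 0.0368). Ciita, the master regulator of class II genes, was at 0.150, 2.41 and 3.23 FPKM in ND and 11.04, 9.81 and 6.40 in GT (1.38 ± 0.22, adjusted p = 0.0112). Both were above all ND libraries in every GT library. The thiol reductase gene Ifi30 (2.30 ± 0.37), the chains H2-Ab1 (1.35 ± 0.25), H2-Aa (1.06 ± 0.24) and H2-Eb1 (1.15 ± 0.24), the loading gene H2-DMa (1.34 ± 0.25) and the invariant chain gene Cd74 (1.16 ± 0.23) were higher. Without GT 2, 0 of the 11 passed limma's test, with adjusted p of 0.0542 for H2-DMb1 and 0.0568 for Ciita. With the block 3 passed. The list's median was 1.03 without the 3 libraries that held most testis RNA.

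The lists of other immune cells and of the interferon response had 0 to 2 called genes each, beside 7.5% of genes called higher over all genes. Il7r, the interleukin-7 receptor chain of lymphocytes that some macrophages also make, was the 1 called gene of 8 in the T and NK cell list, at 0.0515, 0.632 and 0.926 FPKM in ND and 30.7, 21.6 and 9.91 in GT (3.49 ± 0.40, adjusted p = 0.00644; 3.74 with ND 1, adjusted p = 0.0176). The other T and NK markers with the smallest p did not pass: Gzma had a log2 difference of 0.73 (adjusted p = 0.108) and Cd2 of -0.17 (adjusted p = 0.694). The 2 B cell genes fitted did not pass either, with Cd79b at 0.35 and Jchain at -0.29. In the mast cell and neutrophil list 2 of 8 were higher. S100a8, a calcium-binding protein of neutrophils and monocytes, was at 0, 7.12 and 9.56 FPKM in ND and 75.5, 56.0 and 34.5 in GT (2.53 ± 0.29, adjusted p = 0.0057), and Csf3r, the granulocyte growth factor receptor, had a difference of 1.06 ± 0.27 (adjusted p = 0.0418). The actin-bundling gene Fscn1 was the 1 called of 6 dendritic cell genes (1.08 ± 0.21, adjusted p = 0.0197). Of 19 interferon-response genes 2 were higher, Ubd (4.64 ± 0.45) and the viral RNA sensor gene Oas1a (1.39 ± 0.27), and the median was 0.26. Ubd, a ubiquitin-like protein that cytokines induce, was at 1.43, 8.25 and 4.80 FPKM in ND and 314, 193 and 98.5 in GT, with no overlap. It also passed with all 9 libraries (5.17, adjusted p = 0.0176). Of the calls in these lists Il7r, S100a8 and Ubd held without GT 2 and with the block, and those of Csf3r, Fscn1 and Oas1a ended in both fits.

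Further genes with the largest differences were chosen by size alone. The protease gene Adam8 (4.12 ± 0.52, adjusted p = 0.00948), the G protein regulator gene Rgs1 (4.19 ± 0.41, adjusted p = 0.00457) and the clotting factor gene F7 (4.33 ± 0.53, adjusted p = 0.00843) were higher. All 3 passed with all 9 libraries, at adjusted p of 0.0271, 0.01 and 0.0176. F7, coagulation factor VII, which the liver makes for the blood, was at 0.403, 0.285 and 0.297 FPKM in ND and 44.5, 30.1 and 11.3 in GT. All ND values lay under the 1 FPKM floor of the filter, which F7 passed only through HFD or GT libraries. That every GT library was above them is therefore no separate support. The call of Adam8 ended without GT 2 and ND 1 (adjusted p = 0.0509) and with the block (adjusted p = 0.0529).

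Some genes that handle sterols and droplet lipid were higher in GT without ND 1, and most members of these lists did not pass. Of 11 sterol efflux and storage genes 4 were higher and 0 lower without ND 1 (median 0.32), and 2 with all 9 libraries. Pltp, the phospholipid transfer protein, was at 41.2, 93.5 and 104 FPKM in ND and 546, 481 and 319 in GT (2.14 ± 0.23, adjusted p = 0.00457; 2.55 with ND 1, adjusted p = 0.04). Nceh1, a cholesteryl ester hydrolase of macrophages, was at 0.542, 2.65 and 4.54 FPKM in ND and 51.7, 37.6 and 15.9 in GT (2.85 ± 0.45, adjusted p = 0.0129; 3.37 with ND 1, adjusted p = 0.047). Both had no overlap between the diets. Soat1, which esterifies cholesterol for storage, and the cholesterol exporter gene Abcg1 were higher by 2.26 ± 0.41 and 0.84 ± 0.16. Pltp was the 1 that passed without GT 2, and also the 1 with the block.

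In cholesterol synthesis 6 of 21 genes were higher and 0 lower without ND 1 (median 0.40). Keeping ND 1, 0 were called, with 8 higher at an unadjusted limma p under 0.05. Insig1, which holds the sterol-sensing complex in the endoplasmic reticulum, was at 18.4, 69.6 and 62.5 FPKM in ND and 193, 192 and 165 in GT (1.46 ± 0.13, adjusted p = 0.00227; 2.05 with ND 1, adjusted p = 0.105). The GT libraries were close together and above all ND libraries, and the HFD libraries stood at 206, 194 and 182. The enzyme genes Dhcr7 (1.61 ± 0.32), Msmo1 (0.89 ± 0.13), Fdps (0.89 ± 0.19) and Mvk (0.82 ± 0.12) were higher. For Fdps ND 1 held 111 FPKM against 14.7 and 20.2 in ND 2 and ND 3, and with it the difference was 0.02 (adjusted p = 0.989). Insig1 passed with the block and without GT 2, and the other calls of the list did not.

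Of 11 uptake genes 3 were higher without ND 1 (median 0.32) and 0 with all 9 libraries (median 1.4). Among the 3 were the lipoprotein receptor gene Lrp1 (0.93 ± 0.24) and the fatty acid binding protein gene Fabp7 (1.94 ± 0.37). Of these 3 calls 0 held without GT 1, without GT 2 or with the block, where Fabp7 had an adjusted p of 0.0557. The main uptake genes of adipocytes did not pass. Cd36, the fatty acid translocase, was at 2230 and 1595 FPKM in ND 2 and ND 3 and 1780, 2014 and 2044 in GT (0.04 ± 0.19, adjusted p = 0.896). Lpl, lipoprotein lipase, had a log2 difference of -0.19 ± 0.27 (adjusted p = 0.667). Beside Plin2, the droplet genes Hilpda (1.00 ± 0.15) and Plin3 (0.90 ± 0.16) were higher, 3 of 9 in the list, and none of the 3 passed without GT 2 (adjusted p of 0.0582 for Plin2) or with the block (0.0557 for Plin2). With all 9 libraries 0 of the droplet genes were called, and the list's median was 0.92 against 0.4 without ND 1.

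Matrix genes were higher without ND 1, in 17 of 34 cases, and 1 was lower (median 0.77). When ND 1 was kept 1 gene, Col12a1, was called, and the median was 1.59. Col6a2, a chain of the collagen VI that surrounds adipocytes, was at 10.3, 104 and 100 FPKM in ND and 256, 268 and 236 in GT (1.31 ± 0.14, adjusted p = 0.00413; 2.37 with ND 1, adjusted p = 0.221). The GT libraries lay above all ND libraries and within the HFD range of 230 to 280. Its partner chain Col6a1 was higher by 1.17 ± 0.13, and Col12a1, a fibril-associated collagen, by 1.33 ± 0.17 (adjusted p = 0.00738; 1.30 with ND 1, adjusted p = 0.0455). Sparc, a collagen-binding matricellular protein, was at 185, 2103 and 2175 FPKM in ND, 2456 to 2761 in HFD and 3464, 4432 and 4773 in GT (0.97 ± 0.18, adjusted p = 0.0165; 2.14 with ND 1, adjusted p = 0.235). All 3 GT libraries were above all 3 HFD libraries. The basement membrane gene Col4a2 had the same order, with 136 and 186 FPKM in ND 2 and ND 3, 224 to 237 in HFD and 297, 345 and 327 in GT (1.02 ± 0.16, adjusted p = 0.0111). The fibril collagens Col1a1 (1.57 ± 0.30) and Col3a1 (1.31 ± 0.24), the small proteoglycan genes Lum (1.24 ± 0.27) and Bgn (0.79 ± 0.15), periostin (Postn, 0.75 ± 0.15), the gelatinase gene Mmp2 (1.02 ± 0.18) and the protease inhibitor gene Timp1 (2.15 ± 0.35) were higher, and the gelatinase gene Mmp9 was lower (-0.96 ± 0.22). Timp1 was at 5.71, 1.48 and 1.25 FPKM in ND and 13.2, 10.4 and 6.00 in GT, so ND 1 lay just under the lowest GT library. Without the 3 libraries that held most testis RNA the list had a median of 0.9. It held 3 higher without GT 2 and 2 with the block, and Col6a2 and Col6a1 were among the calls in both.

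Cell cycle genes were higher in 3 of 22 cases (median 0.68), namely the replication licensing genes Mcm3 (1.00 ± 0.22) and Mcm5 (1.20 ± 0.27) and the cyclin gene Ccna2 (1.17 ± 0.26). Mki67, the proliferation marker, stood at 1.81, 1.25 and 1.60 FPKM in ND and 5.10, 4.20 and 2.19 in GT and did not pass (0.94 ± 0.26, adjusted p = 0.0565). With all 9 libraries 0 of the 22 were called by limma, with 6 higher and 1 lower at an unadjusted p under 0.05. None of the 3 passed without GT 2, without GT 1 or with the block.

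Adipocyte genes moved in both directions. Of 24 genes of adipocyte identity 2 were higher and 4 lower without ND 1, with a median of -0.46. The share of higher genes was near the 7.5% over all genes, where 3.16% were lower. With all 9 libraries 0 were called by limma, 2 were higher and 3 lower at an unadjusted p under 0.05, and the median was 0.70, so the sign of the list's median turned with ND 1, which held less adipocyte RNA. Leptin (Lep), the satiety hormone, was at 7.97, 323 and 317 FPKM in ND, 899, 1196 and 1186 in HFD and 1143, 1117 and 1366 in GT. It was higher by 1.91 ± 0.18 (adjusted p = 0.00249), and by 3.63 ± 1.24 with ND 1 (adjusted p = 0.227). Its GT libraries lay above all ND libraries and overlapped HFD, and the call held without GT 2 (adjusted p = 0.0199) and with the block (adjusted p = 0.0188). Dgat2, which makes triglyceride, was also higher (1.07 ± 0.19, adjusted p = 0.0156; 0.0545 without GT 2 and 0.0591 with the block).

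For the lower adipocyte genes the GT libraries lay between HFD and the pair ND 2 and ND 3. Adipsin (Cfd), complement factor D, was at 3048, 4074 and 3626 FPKM in ND, 337, 349 and 251 in HFD and 800, 1204 and 1668 in GT (-1.71 ± 0.30, adjusted p = 0.0133; -1.60 with ND 1, adjusted p = 0.1). No GT library reached the ND or the HFD range. Pck1, which makes glycerol for triglyceride in fat, was at 2130 and 1954 FPKM in ND 2 and ND 3, 227 to 266 in HFD and 444, 819 and 980 in GT (-1.52 ± 0.30, adjusted p = 0.0194). ND 1 held 77.2, below every GT library, and with it the difference was 0.05 (adjusted p = 0.982). Fam13a, linked to body fat distribution, was at 56.2 and 35.2 FPKM in ND 2 and ND 3 and 6.85, 9.32 and 13.8 in GT (-2.1 ± 0.32, adjusted p = 0.0109). Acvr1c, the activin receptor ALK7 of adipocytes, was at 46.9 and 32.3 and at 11.2, 13.1 and 18.5 (-1.41 ± 0.24, adjusted p = 0.0133). ND 1, at 1.30 FPKM of Fam13a and 1.15 of Acvr1c, was below all GT libraries, and with it neither passed (adjusted p = 0.697 and 0.996). Without GT 2 and ND 1 the adjusted p was 0.0594 for Cfd, 0.0623 for Pck1, 0.0518 for Fam13a and 0.0621 for Acvr1c, so all 4 calls ended. They ended with the block too, at 0.0649, 0.0762, 0.0534 and 0.056.

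Other hormones and adipocyte regulators did not pass the test in either fit. Adiponectin (Adipoq) was at 202, 2781 and 1826 FPKM in ND and 1258, 1741 and 2129 in GT (-0.43 ± 0.26, adjusted p = 0.298; 0.73 with ND 1, adjusted p = 0.606). Its GT libraries overlapped ND 2 and ND 3. Resistin (Retn) was at 350, 1128 and 679 FPKM in ND and 411, 486 and 598 in GT (-0.83 ± 0.29, adjusted p = 0.103), and retinol binding protein (Rbp4) had a difference of -0.54 ± 0.18 (adjusted p = 0.0933). Pparg, the master regulator of adipocytes, was at 92.5 and 71.5 FPKM in ND 2 and ND 3 and 65.2, 66.5 and 98.4 in GT (-0.11 ± 0.21, adjusted p = 0.753). The insulin-regulated glucose transporter gene Slc2a4 had a difference of 0.03 ± 0.32 (adjusted p = 0.954). Adrb3, the beta-3 adrenergic receptor that triggers lipolysis, was at 282 and 331 FPKM in ND 2 and ND 3, 41.4 to 92.0 in HFD and 135, 126 and 245 in GT. It did not pass (-0.92 ± 0.38, adjusted p = 0.158), although no GT library reached ND 2.

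**Figure D3:**
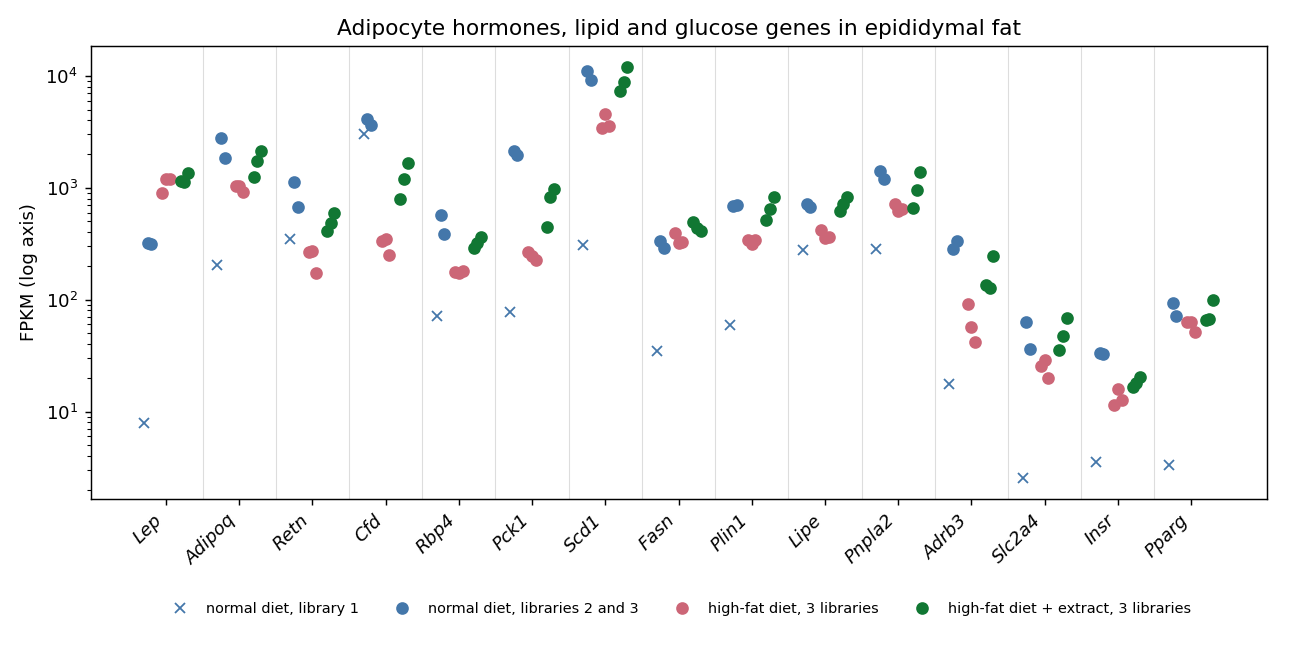
FPKM (log scale) of adipocyte hormone and lipid genes in each of the 9 fat libraries, by diet. Lep lies at 1117 to 1366 FPKM in GT and 317 to 323 in ND 2 and ND 3, Cfd lies at 800 to 1668 in GT and 3048 to 4074 in ND, and ND 1 lies far below the other ND libraries for most of these genes but not for Cfd.

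Few lipid enzymes of the adipocyte were called. In lipogenesis and triglyceride synthesis 2 of 22 genes were higher and 2 lower without ND 1 (median 0.01), apart from Dgat2, which was counted with adipocyte identity. The share of higher genes was near the 7.5% over all genes, where 3.16% were lower. The desaturase gene Scd2 was at 21.7, 23.0 and 36.9 FPKM in ND and 183, 139 and 117 in GT (2.27 ± 0.24, adjusted p = 0.00457; 2.4 with ND 1, adjusted p = 0.0244), with no overlap. Agpat2, which makes phosphatidic acid, was higher by 1.33 ± 0.16 (adjusted p = 0.00602). Acaca, acetyl-CoA carboxylase, the first step of fatty acid synthesis, was at 74.2 and 85.8 FPKM in ND 2 and ND 3, 8.0 in ND 1 and 23.4, 48.5 and 33.6 in GT (-1.22 ± 0.27, adjusted p = 0.0274). Mogat1, a monoacylglycerol acyltransferase, was lower too (-1.40 ± 0.33, adjusted p = 0.0363). Scd1, the main desaturase of fat, was at 11074 and 9242 FPKM in ND 2 and ND 3 and 7249, 8867 and 12114 in GT (-0.14 ± 0.26, adjusted p = 0.747). Fatty acid synthase (Fasn) had a difference of 0.52 ± 0.16 (adjusted p = 0.0677). With all 9 libraries Scd2 was the 1 call. Without GT 2 and ND 1 Scd2, Agpat2 and Acaca passed (adjusted p = 0.0316, 0.0227 and 0.0364) and Mogat1 did not (0.0938). With the block the calls of Acaca (adjusted p = 0.0637) and Mogat1 (0.0745) ended and those of Scd2 and Agpat2 held. Acaca and Mogat1 also did not pass without ND 3, without HFD 3 or without the 3 libraries that held most testis RNA (adjusted p = 0.0888 and 0.0668 in the last).

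Of the 15 genes of the lipolysis list 1, which does not encode a lipase, was higher and 1 lower without ND 1 (median -0.06). The share of higher genes was near the 7.5% over all genes, where 3.16% were lower. With all 9 libraries 0 of the 15 were called, and the median was 0.49. The glycerol phosphate dehydrogenase gene Gpd1 was higher (1.35 ± 0.32, adjusted p = 0.0365), and Pde3b, the phosphodiesterase through which insulin restrains lipolysis, was lower (-0.91 ± 0.20, adjusted p = 0.0264). The lipases Pnpla2 (-0.44 ± 0.28, adjusted p = 0.318) and Lipe (0.05 ± 0.16, adjusted p = 0.868) and the droplet coat gene Plin1 (-0.09 ± 0.19, adjusted p = 0.79) did not pass. Of 23 fatty acid oxidation genes Cpt1a, the carnitine acyltransferase of the liver form, was higher (0.55 ± 0.14, adjusted p = 0.0468). Acsm3, a medium-chain acyl-CoA synthetase, and Eci3, an enoyl-CoA isomerase of peroxisomes, were lower. These calls, 1 higher and 2 lower of 23, stand beside 7.5% and 3.16% over all genes. With all 9 libraries 0 of the 23 were called, and the median was 0.76 against -0.07 without ND 1. Acsm3 was at 23.2 and 19.3 FPKM in ND 2 and ND 3, 0.593 to 0.856 in HFD and 0.782, 2.01 and 3.40 in GT (-2.95 ± 0.34, adjusted p = 0.00532). ND 1 held 0.358 FPKM, below every GT library, and with it Acsm3 did not pass (-1.61, adjusted p = 0.37). Eci3 was at 31.0 and 19.3 FPKM in ND 2 and ND 3 and 4.03, 5.61 and 10.1 in GT (-1.83 ± 0.37, adjusted p = 0.0215; -0.91 with ND 1, adjusted p = 0.465). Of the calls in these lists Acsm3 held without GT 2 (adjusted p = 0.0324) and with the block (0.0327).

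Some genes of mitochondrial fuel use were lower without ND 1. Of 33 genes that run the citrate cycle or break down branched-chain amino acids 0 were higher and 5 lower (median -0.20), and the 5 were Aldh6a1 (-1.0 ± 0.25), Mccc1 (-0.71 ± 0.19), Suclg2 (-0.53 ± 0.13), Sdha (-0.51 ± 0.13) and Idh3b (-0.48 ± 0.12). Aldh6a1, a dehydrogenase of valine breakdown, was at 319 and 239 FPKM in ND 2 and ND 3, 76.6 to 117 in HFD and 109, 137 and 175 in GT. ND 1 held 9.99 FPKM of it, and with all 9 libraries the list's median was 0.47, 0 of the 33 had an unadjusted limma p under 0.05, and none was called. None of the 5 was called with median-ratio scaling, with the block or without GT 2. Of 25 respiratory chain genes 0 were called in either fit by limma. Without ND 1 the median was -0.18, with 1 higher and 3 lower at an unadjusted p under 0.05, and with all 9 libraries no gene had one. Without the 3 libraries that held most testis RNA the median was -0.36. Insr, the insulin receptor, was the 1 called of 18 glucose and insulin genes, at 33.1 and 32.7 FPKM in ND 2 and ND 3, 11.5 to 15.8 in HFD and 16.5, 17.8 and 20.3 in GT (-0.82 ± 0.16, adjusted p = 0.0183). ND 1 held 3.51 FPKM, with it the difference was 0.15 (adjusted p = 0.903), and the call also ended without GT 1, without GT 2 (adjusted p = 0.0788) and with the block (0.0674). Of 6 thermogenic genes Ebf2, a brown and beige fat regulator, was lower (-1.18 ± 0.19, adjusted p = 0.0117), and the elongase gene Elovl3, at 0 to 0.220 FPKM in ND and 0.707 to 1.59 in GT, was higher (1.13 ± 0.26, adjusted p = 0.0319). Both calls ended without GT 2 (adjusted p = 0.0594 and 0.12) and with the block (0.056 and 0.114).

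The 4 genes that were lower with all 9 libraries were Gsta4, Nat8f1, Med18 and the predicted gene Gm17611. Gsta4, a glutathione transferase that clears 4-hydroxynonenal, a product of lipid peroxidation, was at 41.2, 22.4 and 22.4 FPKM in ND, 3.64, 2.42 and 3.54 in HFD and 1.88, 3.39 and 5.77 in GT. The log2 difference was -2.41 ± 0.32 without ND 1 (adjusted p = 0.00802) and -2.69 ± 0.38 with it (adjusted p = 0.0354). GT and ND did not overlap, while GT and HFD did. Nat8f1, an acetyltransferase family gene, was at 11.8, 5.91 and 7.99 FPKM in ND and 1.64, 1.70 and 1.47 in GT (-1.60 ± 0.17, adjusted p = 0.00457; -1.83 with ND 1, adjusted p = 0.0354). Med18, a Mediator subunit, was at 12.7, 10.4 and 10.6 FPKM in ND and 3.91, 4.12 and 3.49 in GT (-1.25 ± 0.14, adjusted p = 0.00532; -1.34 with ND 1, adjusted p = 0.0354). Neither gene's groups overlapped, and ND 1 was the highest library for both. Without ND 1, all 3 of these passed with the block and without GT 2.

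Of 22 glutathione and NRF2 genes 3 were higher and 3 lower without ND 1 (median -0.12). The lower ones were Gsta4 and the transferase genes Gsta3 (-1.35 ± 0.25) and Gstt1 (-0.96 ± 0.17), and the higher ones were haem oxygenase (Hmox1), the superoxide dismutase gene Sod2 (0.59 ± 0.14) and the transferase gene Gsto1 (0.75 ± 0.18). Hmox1, which macrophages that digest red cells express, was at 3.15, 17.0 and 18.5 FPKM in ND and 88.3, 66.2 and 42.1 in GT (1.76 ± 0.29, adjusted p = 0.0118). Members of this family thus differed in direction, and Gsta3 was at 112 and 91.4 FPKM in ND 2 and ND 3 but 27.0 in ND 1, against 28.5, 37.8 and 55.6 in GT. Gsta3 and Gsta4 belong to the same gene family, and whether reads were divided between family members in the counting was not examined. Without GT 2, Gsta4 was the 1 call of the list, as it was with the block.

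Other genes with the largest falls without ND 1 had no common order among the ND libraries. Adgrg2, a receptor of the epididymis that adipocytes also carry, was at 6.43, 15.1 and 63.4 FPKM in ND and 3.78, 4.56 and 4.86 in GT (-2.58 ± 0.61, adjusted p = 0.0424). Its level was lowest in ND 1 and far higher in ND 3 than in ND 2, and the call ended without the 3 libraries that held most testis RNA (adjusted p = 0.0827). Ccdc73 was at 54.4, 22.0 and 12.8 FPKM in ND and 2.94, 3.98 and 4.77 in GT (-1.88 ± 0.29, adjusted p = 0.0111), and Eif4ebp3, an inhibitor of translation initiation, was at 29.1, 9.0 and 5.85 and at 1.11, 1.32 and 1.8 (-1.79 ± 0.30, adjusted p = 0.0124). Both were highest in ND 1, the library with most testis RNA, and higher in ND 2 than in ND 3. Efcab7 was lower too (-1.94 ± 0.49, adjusted p = 0.0444). Its call ended without the 3 libraries that held most testis RNA, where ND 2 alone stood for the normal diet. The signalling genes Dock3 (-1.94 ± 0.48) and Gprin3 (-1.86 ± 0.35) completed the largest falls. All 6 of these calls ended without GT 2, and with the block those of Dock3 and Gprin3 held (adjusted p = 0.0474 and 0.0475). Of the 19 testis markers fitted without ND 1, 0 were called, with 1 higher and 2 lower at an unadjusted limma p under 0.05, and their median was -3.53. The testis markers summed to 256.9 and 4013 FPKM in ND 2 and ND 3 against 163.7 at most in GT, and their part in the other lower genes was not tested beyond the fits given here.

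Markers of other cells in the pad differed in both directions. Of 8 mesothelial genes 4 were lower and 0 higher without ND 1 (median -1.39), namely Lrrn4 (-1.60 ± 0.22), Upk3b (-1.69 ± 0.43), Msln (-1.33 ± 0.26) and Wt1 (-1.18 ± 0.25). With all 9 libraries 0 of the 8 were called, and the median was -1.54. Mesothelin (Msln), which coats the surface layer of the fat pad, was at 1.71, 4.40 and 4.74 FPKM in ND and 1.05, 0.685 and 2.12 in GT, so GT 3 overlapped ND 1. Without GT 2 Lrrn4 alone passed (adjusted p = 0.0459), and with the block none of the 4 did. Without ND 3 as well as ND 1, 7 genes of the list were fitted and the median was -0.85. It was also -0.85 without the 3 libraries that held most testis RNA. In both fits ND 2 alone stood for the normal diet. The mesothelial sum was 271.5, 32.41 and 110.9 FPKM in ND and 10.09 to 18.69 in GT, and its part in other results was not tested. Red cell genes summed to 1477, 981.3 and 569.7 FPKM in ND and 304.3 to 400.5 in GT. The haemoglobin gene Hba-a2 was the 1 called of 5 (-1.13 ± 0.29, adjusted p = 0.0442), and reads of its near-identical neighbour Hba-a1 (-1.05 ± 0.31, adjusted p = 0.0669) could not be told from its own. Its call ended without GT 2 and with the block (adjusted p = 0.122 and 0.145), where 0 of the 5 passed. All 5 were lower with the filter at 5 FPKM. The list's median was -1.05 without ND 1. It was -1.4 without ND 3 too, and also without the 3 libraries that held most testis RNA. Of 12 endothelial genes von Willebrand factor (Vwf) was higher (0.95 ± 0.20, adjusted p = 0.0214), with 12.1 and 14.2 FPKM in ND 2 and ND 3 and 30.2, 23.6 and 25.6 in GT. ND 1 held 30.3, and with it Vwf did not pass (adjusted p = 0.366). It was the 1 call of the list, a share near the 7.5% over all genes, and it ended without GT 1, without GT 2 (adjusted p = 0.068) and with the block (0.056). Of 10 fibroblast and progenitor genes 0 were called by limma, with 2 higher and 3 lower at an unadjusted p under 0.05, and Pdgfra, the receptor that marks adipocyte progenitors, had a difference of -0.46 ± 0.12 (adjusted p = 0.0511).

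Stress and clock genes were divided. The stress response genes Asns (asparagine synthetase, -1.11 ± 0.17, adjusted p = 0.0109) and Sesn2 (-1.0 ± 0.18, adjusted p = 0.015) were lower, and Atf3, Gdf15, Calr and Sdf2l1 were higher, 4 of 17. Asns was at 59.6, 46.1 and 52.4 FPKM in ND and 18.5, 24.2 and 24.6 in GT, without overlap. Atf3, a transcription factor of the stress response that is also in the phagocytic list, was at 0.529, 4.55 and 3.47 FPKM in ND and 84.1, 69.0 and 24.6 in GT (3.42 ± 0.47, adjusted p = 0.0109; 3.99 with ND 1, adjusted p = 0.0366). The stress hormone gene Gdf15 was higher by 1.19 ± 0.23 and the chaperone gene Calr by 0.73 ± 0.14. Of 18 clock genes 2 were lower without ND 1, among them the period gene Per1 (-1.46 ± 0.38, adjusted p = 0.0478), and 0 were called with all 9 libraries, where 1 was higher and 1 lower at an unadjusted limma p under 0.05. Without GT 2 Asns (adjusted p = 0.0489) passed, and Atf3 (0.0518) and Per1 (0.135) did not. With the block 0 of the stress genes and 0 of the clock genes passed (adjusted p = 0.056 for Asns and 0.0531 for Atf3). Of 24 ribosomal protein genes 0 were called in either fit, and no gene had an unadjusted limma p under 0.05.

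**Figure D4:**
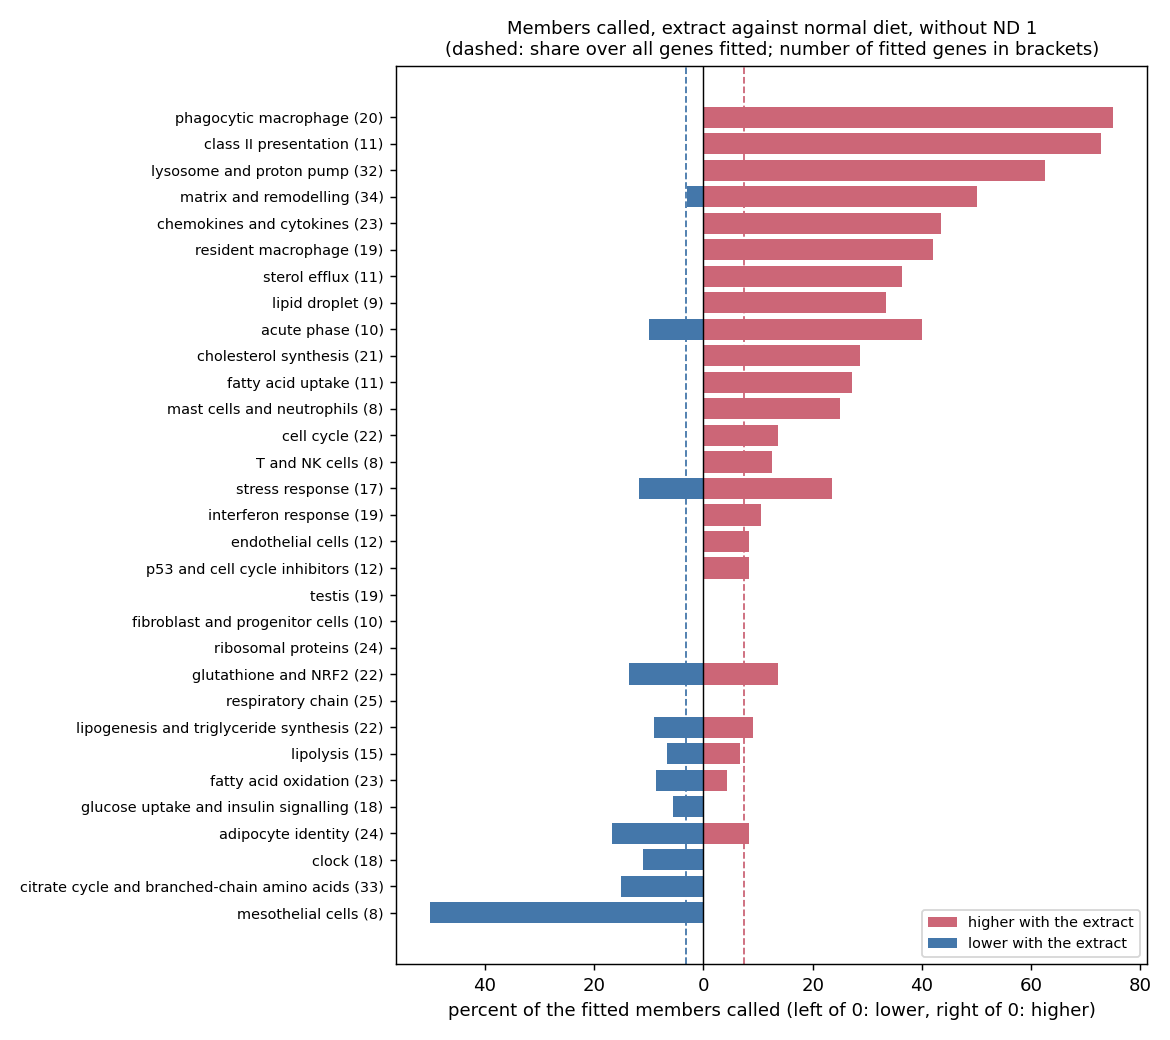
Percent of the fitted genes of each list (number in brackets) called higher (right of 0) or lower (left of 0) in GT than in ND without ND 1, for lists with 8 or more fitted genes; dashed lines mark the shares over all genes, 7.5% higher and 3.16% lower. The bars of the phagocytic macrophage list (15 of 20 genes) and the lysosomal list (20 of 32) reach far past the dashed line on the higher side, and the mesothelial list (4 of 8) has the longest bar on the lower side.

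The 2 high-fat diets share the ND libraries in their comparisons with ND, so their values stand side by side here with no test between them. The median log2 difference from ND without ND 1 was 2.69 for GT and 3.95 for HFD in the phagocytic macrophage list, 0.79 and 1.26 in the lysosomal list, 1.16 and 1.18 in the class II list, 0.77 and 1.24 in the matrix list and -0.46 and -1.30 in the adipocyte identity list. Over all genes these medians were -0.05 and 0.02. A few genes that differed from ND on the high-fat diet had values near ND with the extract, and those nearest were picked by that small difference. Lipe, hormone-sensitive lipase, was at 714 and 677 FPKM in ND 2 and ND 3, 417, 354 and 366 in HFD and 622, 715 and 832 in GT. Catalase (Cat) was at 464 and 356 FPKM in ND 2 and ND 3, 246, 278 and 301 in HFD and 366, 389 and 425 in GT. The chaperone gene Hsp90b1 was at 81.2 and 82.1, then 112, 118 and 111 in HFD, and 82.7, 81.4 and 79.4 in GT. In these 3 genes GT overlapped ND 2 and ND 3, and HFD lay apart from both. ND 1, at 278, 13.3 and 28.0 FPKM of these 3 genes, lay below ND 2, ND 3 and every GT library for all of them.

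**Figure D5:**
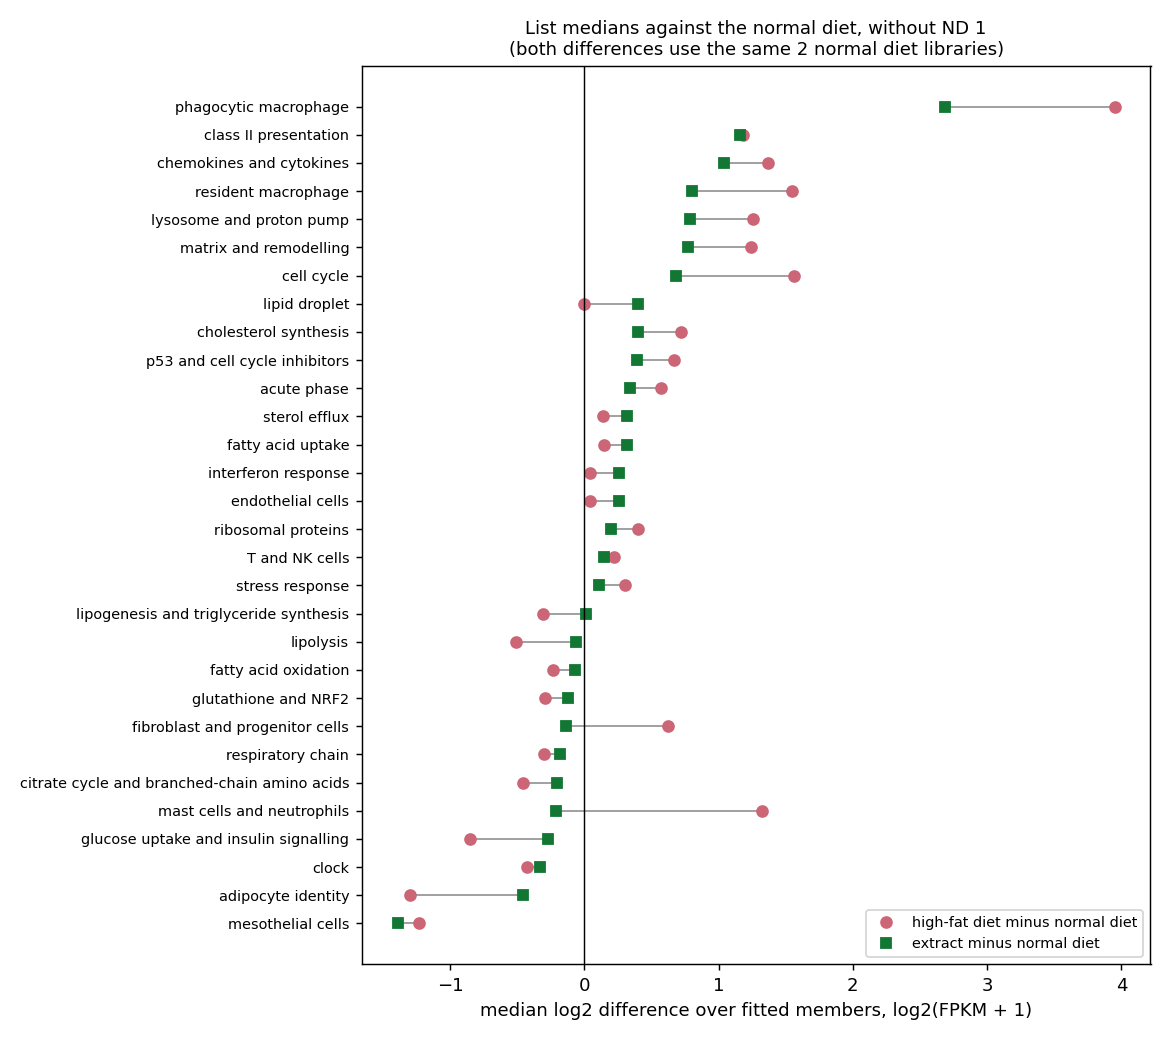
Median log2 difference from ND over the genes of each list with 8 or more fitted genes, for GT and for HFD, without ND 1. The testis list, with medians of -3.53 for GT and -1.9 for HFD, is not drawn. GT lies at 2.69 and HFD at 3.95 for the phagocytic macrophage list and at -0.46 and -1.30 for the adipocyte identity list; the 2 comparisons share ND 2 and ND 3.

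The 3 GT libraries differed among themselves in the genes called. GT 3 was the lowest of the 3 in 769 of the 964 higher genes (79.8%) and GT 1 the highest in 768 (79.7%), against 48.2% and 53.5% over all genes. Among the 405 lower genes with unequal values, GT 3 was the highest in 236 (58.3%). Leaving out GT 3 raised the calls to 1594 without ND 1 and to 147 with it. Phagocytic macrophage markers were likewise lowest in GT 3, at 7341 FPKM against 10030 and 9500, and adipocyte markers highest, at 44070 FPKM against 33100 and 38270. Their part in the order of the other genes was not tested.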

How the data were processed

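Polyadenylated RNA of 9 epididymal fat libraries, 3 per diet, was sequenced from TruSeq libraries. The authors deposited FPKM values per gene. The submitters' processing notes name CASAVA 1.8.2, STAR 2.4.0 and Cufflinks 2.1.1, and no build is named in the sources used here. Of 23474 genes 22671 were matched to a symbol by their gene identifier.

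From these values, log2(FPKM + 1) was fitted with limma 3.58.1 in R 4.3.3 with a mean per diet, a variance prior that follows the mean and is robust to outliers, and Benjamini-Hochberg adjustment over all genes fitted. Genes had at least 1 FPKM in at least 3 libraries, applied again without ND 1. The procedure was tested on simulated data. The deviations of ND and GT libraries with the same number from their diet means correlated at 0.258, 0.124 and 0.189 across genes. Pairs with unlike numbers correlated at -0.252 to 0.118. Deviations within a diet cancel out, so these pairs do not vary independently of each other. The fits with the replicate number as a block are therefore given beside the results, though a shared batch is not established. Without ND 1 the correlations of the 2 remaining pairs were 0.098 and -0.022, against -0.098 to 0.089 for unlike numbers. There the deviations of ND 2 and ND 3 are exact opposites, so each pair mirrors another and the comparison cannot show a shared batch. The numbers come from the sample titles.

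The genes and lists were chosen with earlier results of these data known. Named genes were up to 10 per direction with the largest difference among called, non-overlapping genes with a mean of at least 1 FPKM, up to 4 per list with the smallest p, 26 hormone, lipid and inflammation genes, and 5 that differed from ND on the high-fat diet and least with extract. Other called members of a list were named after their values were seen. Gene-level estimates of close copies share reads. Promoters came from RefSeq (GRCm38.p6). The alternatives were an added 0.1, no filter, a filter at 5 FPKM, equal totals, median-ratio and quantile scaling, the block, a plain prior, only the compared diets, both tissues in 1 fit, the genes of the other filter, each library left out and the 3 libraries with most testis RNA left out. Plots were made with matplotlib 3.10.9 in Python 3.11.15.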

Additional observations from a re-analysis of the deposited data

How the results depend on the processing

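Depth is unknown, so how far counting error limits low FPKM values could not be set. Each ND or GT library carries much of the estimate, and testis RNA in ND 1, ND 3 and HFD 1 touches the normal-diet side most. With all 9 libraries (88 genes called) no filter gave 22, median-ratio scaling 182, quantile scaling 278, the replicate block 3, both tissues in 1 fit 2942, only the compared diets 0 (1527 at an unadjusted limma p under 0.05) and the fit without the 3 libraries with most testis RNA 1238. Leaving out 1 library gave 0 (without GT 2) to 2544 (without ND 2, 1922 of them lower), and 1370 without ND 1. Equal totals gave 74, a filter at 5 FPKM 97, a plain prior 93 and an added 0.1 again 88. Both tissues in 1 fit turned the split to 1350 higher and 1592 lower. Scaling moved the median log2 difference of all genes from 0.08 to 0.32 (equal totals), -0.05 (median ratio) and 0.17 (quantile), and changes under those settings are relative to these medians.

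Without ND 1 (1370 called) no filter gave 844, the replicate block 157, only the compared diets 6 and both tissues in 1 fit 2355 (1370 higher, 985 lower). Leaving out 1 more library gave 145 (without GT 2) to 2632 (without ND 2), with 553 without GT 1 and 817 without HFD 3. Equal totals gave 1208 calls, 82.4% of them higher against 70.4% as reported. The other settings gave 1214 to 1649. Of 162 named genes called without ND 1, 40 passed in every fit that left out 1 library and 40 with the block, and of 25 named genes called with all 9 libraries 1 passed with the block. With only the compared diets 0 of the 162 and 0 of the 25 passed.

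Some genes that did not pass with all 9 libraries had the opposite sign when libraries with testis RNA were left out. The cause was not tested. Over the fits that left out 1 library, the lowest log2 difference came without ND 1 and the highest without ND 2 unless stated: -1.21 to 0.71 for Cp, -0.91 to 1.46 for Pde3b, -0.53 to 0.83 for Suclg2, -1.0 to 1.43 for Aldh6a1, -0.48 to 0.58 for Idh3b, -0.51 to 0.74 for Sdha (highest without ND 3), -0.82 to 0.63 for Insr, -1.52 to 0.86 for Pck1 and -0.71 to 0.48 for Mccc1. Sdf2l1 ran from -1.24 without ND 2 to 1.38 without ND 1. The fit without the 3 libraries with most testis RNA had ND 2 alone for the normal diet. Its values were -1.33 for Cp, -1.14 for Pde3b, -1.20 for Aldh6a1, -0.64 for Idh3b, -0.56 for Uqcrc2, -0.83 for Insr, -0.74 for Arntl, -0.67 for Myl1, -0.81 for Rbp4 and 2.04 for Sdf2l1.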

Other observations

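Of 12 genes of p53 and cell cycle inhibition 1 was higher without ND 1, a share near the 7.5% over all genes. It was the cyclin kinase inhibitor gene Cdkn1a, at 14.1, 18.1 and 24.1 FPKM in ND and 48.1, 35.8 and 35.0 in GT (log2 difference 0.88 ± 0.20, limma adjusted p = 0.0336). All GT libraries lay above all ND libraries, and with ND 1 in the fit the gene did not pass (adjusted p = 0.139). The call also ended without GT 1, without GT 2 (adjusted p = 0.0886) and with the block (0.0709). Sesn1, another p53 target, did not pass (0.59 ± 0.22, adjusted p = 0.12).

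The clock genes Dbp and Arntl, which run in opposite phase through the day, had differences of 1.04 ± 0.30 (adjusted p = 0.061) and -0.56 ± 0.17 (adjusted p = 0.066) without ND 1 and did not pass. The fit without the 3 libraries that held most testis RNA left ND 2 alone for the normal diet. Its value for Arntl, given above, therefore rests on no spread among ND libraries. Bscl2, the seipin gene needed to form droplets, was at 662 FPKM in ND 1 against 137 and 133 in ND 2 and ND 3 and 181, 177 and 179 in GT, and did not pass (0.40 ± 0.12, adjusted p = 0.0679).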
